A study of Mus musculus with 6 samples.

Results

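Goblet cell genes of the mouse intestine were examined as a set of 10, made up of 7 products of the goblet cell secretory pathway (Muc2, Tff3, Clca1, Fcgbp, Zg16, Spink4 and Agr2) and 3 transcription factors (Spdef, Atoh1 and Creb3l1). All 10 were found, by symbol, among the 54446 gene identifiers of the count table, and positions below are those of GENCODE M21 on build mm10. The study compared intestinal tissue of wild-type mice put through a regimen that models necrotizing enterocolitis (NEC) with tissue of control mice, with 3 samples a group, all taken at 96 h. NEC mice were gavaged with 40 µl of 33% Esbilac formula at intervals of 4 h, and every 12 h they were given 100 s of 99.9% nitrogen and then 10 min at 4 °C. Control mice stayed with the dam and had neither hypoxia nor cold. Formula feeding, hypoxia and cold were given together, so their effects cannot be told apart. The sources used here give no segment of intestine, age, sex or strain, and do not say that each sample is a separate animal, so p-values reflect only how far these samples lie apart, which may be technical.

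Goblet cells are the mucus-secreting cells of the intestinal epithelium. They package the gel-forming mucin MUC2 and its partner proteins into granules, and the released mucus keeps bacteria away from the epithelial surface. The lineage is set by the Notch-repressed factor ATOH1 and matured by SPDEF, which act above the secretory genes, and mice without Muc2 develop colitis. In human NEC and its animal models, loss of mucus and of goblet cells has been described from tissue sections.

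Total counts per library ran from 69441184 to 106304239, and all 10 genes passed the filter on low counts. Levels are given as CPM, counts scaled to a common library total with TMM factors. The least abundant were Atoh1, with 74 to 296 counts a library, and Zg16, with 44 to 1709. The libraries differed in genes that mark sex. Xist, made from the silent X chromosome of females, was at 0.524, 0.429 and 0.546 CPM in NEC and at 179, 344 and 1.17 CPM in control, while the Y-linked Ddx3y was at 25.6, 44.8 and 35.1 CPM in NEC and at 19.8, 1.29 and 30.9 CPM in control. Control replicate 1 thus held both, and the part of sex in the results was not tested. Differences were tested with edgeR's quasi-likelihood method on all 19176 genes that passed the filter. A gene was called where the Benjamini-Hochberg p, adjusted over all of them, lay below 0.05.

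None of the 10 goblet cell genes was called, where 0.704% of all genes tested were (0.261% higher and 0.443% lower in NEC). At an unadjusted p below 0.05 stood 6 of the 10 (Clca1, Spdef, Spink4, Agr2, Creb3l1 and Tff3), against 15.6% of all genes. Of the 6, 5 were higher in NEC, against 7.61% of all genes, and Clca1 was lower, against 7.99%. Log2 fold changes, NEC over control, were positive for 9 of the 10 and negative for Clca1. Their median was 1.08, beside 0.03 for all genes tested, of which 51.9% had a positive value. The 3 libraries of each group did not overlap in 5 of the 10, higher in NEC for Spink4, Agr2, Spdef and Creb3l1 and lower for Clca1, against 22.4% of all genes (10.8% higher, 11.6% lower). By other tools, DESeq2 called 3 of the 10, where it called 7.71% of all genes, and limma-voom called 0, with 0.787% of all genes called. With no filter on low counts edgeR called Clca1, with 0.832% of all genes called, and with the replicate number as a block it called 0 of the 10 and 0.282% of all genes. Without control replicate 1 edgeR called 0 genes in all (0%), and the median of the 10 was 1.14. Because these are bulk samples, a change in the number of cells of a type and a change in RNA per cell cannot be told apart.

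**Figure D1:**
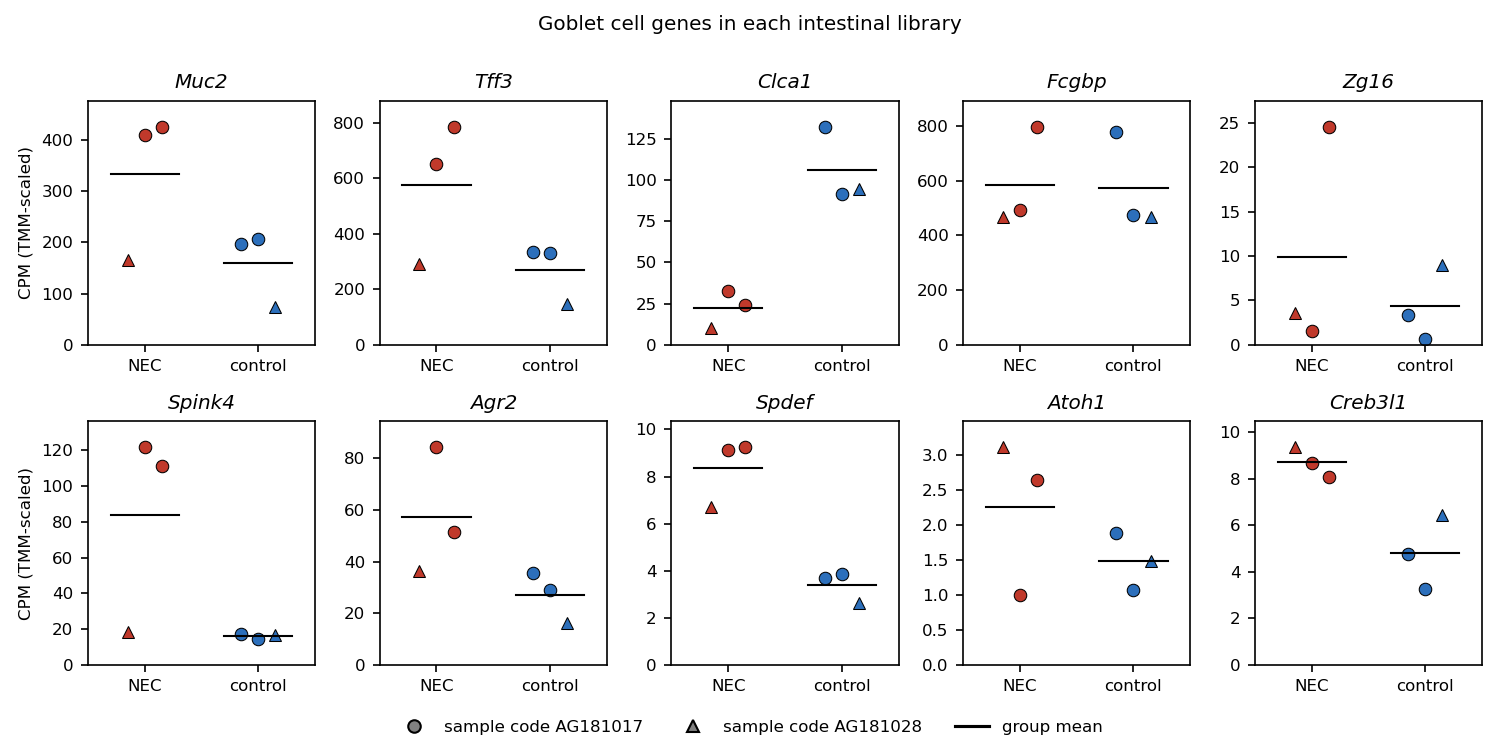
TMM-scaled CPM of each goblet cell gene in the 3 NEC and the 3 control libraries, with the group mean as a line and the sample code of the labels as the marker shape. Clca1 lay at 10.3 to 32.9 CPM in NEC and 91.9 to 132 CPM in control, while Spdef lay at 6.71 to 9.24 CPM in NEC and 2.62 to 3.86 CPM in control.

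To compare levels between genes, levels were taken per exon length as TPM, which sums to the same total over the genes tested in every library, and the genes were ranked by their group means. Tff3, the trefoil peptide, was the highest of the 10 in both groups, with 1352 to 3221 TPM in NEC libraries and 688 to 1394 TPM in control libraries. In NEC it was followed by Spink4, Fcgbp, Muc2 and Agr2, with medians of 434, 115, 111 and 74.1 TPM, and neighbours in this row of 4 overlapped across libraries. In control the order below Tff3 was Fcgbp, Spink4, Clca1, Muc2 and Agr2, with medians of 104, 71.1, 58.3, 53.6 and 46.5 TPM, and the libraries of Fcgbp stood clear of those of Spink4 while the other neighbours in this row overlapped. Clca1 ranked 7 of 10 in NEC, at a median of 11.8 TPM, and 4 of 10 in control, but with the longest transcript as each gene's length it ranked 7 in NEC and 6 in control. Zg16 was low, with medians of 6.58 TPM in NEC and 5.18 TPM in control. The transcription factors had the lowest means, with Atoh1 last in both groups at medians of 2.32 TPM in NEC and 1.63 TPM in control. The annotated exons of Muc2 come to 7127 bases while its longest annotated transcript has 2926, so its gene model is split and its level per length is uncertain. With that transcript as the length, Muc2 averaged 204 TPM in NEC and 93.9 TPM in control and ranked 3 in both.

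Muc2 (ENSMUSG00000025515, chromosome 7, 141690340 to 141754693, plus strand), which encodes the gel-forming mucin itself, had 166, 410 and 426 CPM in NEC replicates 1 to 3 and 197, 208 and 72.8 CPM in control replicates 1 to 3. NEC replicates 2 and 3 lay above every control library, and NEC replicate 1 lay within the control range. Its log2 fold change was 1.07 (SE 0.49, 95% interval -0.08 to 2.22, edgeR adjusted p = 0.352). Tff3 (chromosome 17, 31125306 to 31129646, minus strand), a peptide co-secreted with the mucin that aids epithelial repair, had 290, 651 and 784 CPM in NEC and 333, 331 and 145 CPM in control. It showed the same layout as Muc2, with NEC replicate 1 inside the control range. The log2 fold change of Tff3 was 1.09 (SE 0.46, 95% interval 0.03 to 2.16, edgeR adjusted p = 0.309).

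Agr2 (chromosome 12, 35992907 to 36004087, plus strand), a protein disulfide isomerase of the endoplasmic reticulum needed for MUC2 production in mice, had 36.4, 84.2 and 51.3 CPM in NEC and 35.5, 29.0 and 16.2 CPM in control. The groups did not overlap, though NEC replicate 1 exceeded control replicate 1 by less than 1 CPM. Its log2 fold change was 1.09 (SE 0.40, 95% interval 0.16 to 2.02, edgeR adjusted p = 0.254). Spink4 (chromosome 4, 40920052 to 40931395, plus strand), a Kazal-type protein of goblet cell granules, had 18.3, 122 and 111 CPM in NEC and 17.5, 14.4 and 16.7 CPM in control. NEC replicates 2 and 3 stood far above the other 4 libraries, whose values were close together. Its log2 fold change was 2.37 (SE 0.62, 95% interval 0.92 to 3.81, edgeR adjusted p = 0.134), the most positive of the 10, and without NEC replicate 1 Spink4 was called (log2 fold change 2.84, edgeR adjusted p = 0.0328), along with 0.17% of all genes.

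Clca1 (ENSMUSG00000028255, chromosome 3, 145003817 to 145032776, minus strand), a secreted metalloprotease of the mucus layer, was the 1 member with a negative value. It had 10.3, 32.9 and 23.9 CPM in NEC and 132, 91.9 and 94.4 CPM in control. Every NEC library was below every control library, with the highest NEC value at 32.9 CPM and the lowest control value at 91.9 CPM. The level was 4.74-fold lower in NEC (log2 fold change -2.25, SE 0.43, 95% interval -3.24 to -1.25), with an edgeR adjusted p of 0.0687, the smallest of the 10 and short of the threshold. DESeq2 called Clca1 (adjusted p = 4.67e-05), limma-voom did not, and over all alternative settings its adjusted p ran from 4.67e-05 to 0.278 with log2 fold changes of -2.65 to -1.90.

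Fcgbp and Zg16 complete the secreted products. Fcgbp (chromosome 7, 28071236 to 28120862, plus strand), a large protein bound to the MUC2 network, had 467, 495 and 797 CPM in NEC and 779, 475 and 467 CPM in control. The groups spanned the same range. The Fcgbp log2 fold change was 0.03 (SE 0.33, 95% interval -0.73 to 0.79, edgeR adjusted p = 0.982), and it was negative without NEC replicate 3 (-0.25), control replicate 2 (-0.09) or control replicate 3 (-0.11). Zg16 (chromosome 7, 127050156 to 127087328, minus strand), a lectin that binds Gram-positive bacteria, had 3.60, 1.58 and 24.6 CPM in NEC and 3.35, 0.632 and 8.99 CPM in control. Its libraries varied more within each group than between the groups, and the log2 fold change of 1.19 (SE 1.14, edgeR adjusted p = 0.682) became -0.74 without NEC replicate 3.

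Of the transcription factors, Spdef (chromosome 17, 27714352 to 27728955, minus strand), the ETS factor of goblet cell maturation, had 6.71, 9.12 and 9.24 CPM in NEC and 3.71, 3.86 and 2.62 CPM in control. All NEC libraries lay above all control libraries, with little spread in either group. Its log2 fold change was 1.30 (SE 0.32, 95% interval 0.56 to 2.03, edgeR adjusted p = 0.114), and DESeq2 called it (adjusted p = 0.00204). Creb3l1 (chromosome 2, 91982328 to 92024502, minus strand), a membrane-bound factor of the secretory pathway, had 9.34, 8.69 and 8.06 CPM in NEC and 4.76, 3.25 and 6.44 CPM in control. The groups did not overlap, and the log2 fold change was 0.85 (SE 0.33, 95% interval 0.08 to 1.62, edgeR adjusted p = 0.277). Atoh1 (chromosome 6, 64729125 to 64731245, plus strand), the factor that commits cells to the secretory lineage, had 3.10, 1.0 and 2.64 CPM in NEC and 1.88, 1.06 and 1.48 CPM in control. The groups overlapped, with the lowest of the 6 values in NEC replicate 2, and the log2 fold change was 0.61 (SE 0.51, edgeR adjusted p = 0.632).

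**Figure D2:**
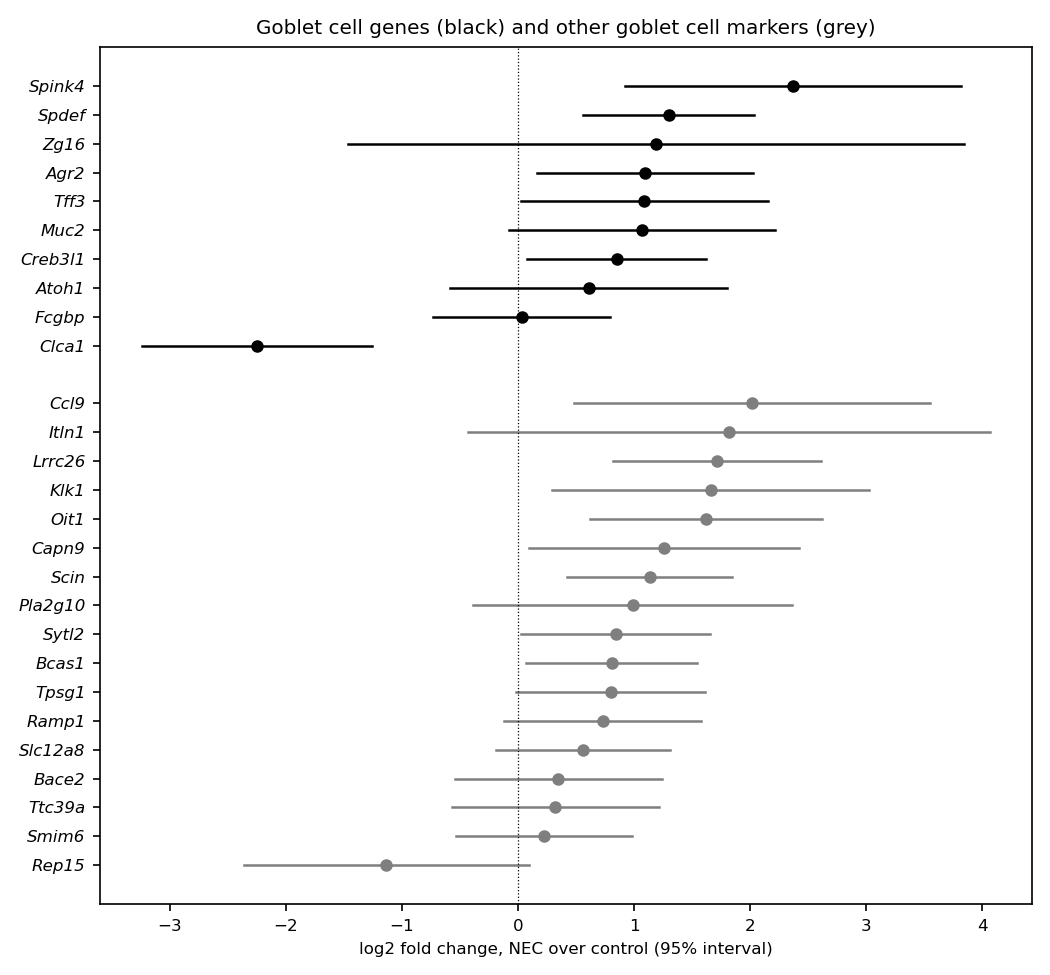
Log2 fold changes, NEC over control, with 95% intervals from the edgeR fit for the 10 goblet cell genes (black) and 17 other goblet cell markers (grey), each ordered by value. Among the black points Clca1, at -2.25, is the 1 value below 0, and among the grey points Rep15 is the 1 value below 0.

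The promoters of Muc2, Agr2 and Spdef, whose log2 fold changes lay between 1.07 and 1.30, are shown beside that of Fcgbp, at 0.03, as the 250 bases before the gene start. They come from RefSeq on build GRCm38.p6, which held 5 of the 10 members, and capitals mark the motif CAGNTG on either strand (its reverse complement reads CANCTG), the E-box form that includes those bound by ATOH1 and other basic helix-loop-helix factors. The windows are chr7:141690090-141690339 on the plus strand for Muc2 and chr12:35992675-35992924 on the plus strand for Agr2. The others are chr17:27728952-27729201 on the minus strand for Spdef and chr7:28070986-28071235 on the plus strand for Fcgbp. The gene start is that of RefSeq, and for Agr2 and Spdef it lies a few bases inside the GENCODE M21 gene.
Muc2: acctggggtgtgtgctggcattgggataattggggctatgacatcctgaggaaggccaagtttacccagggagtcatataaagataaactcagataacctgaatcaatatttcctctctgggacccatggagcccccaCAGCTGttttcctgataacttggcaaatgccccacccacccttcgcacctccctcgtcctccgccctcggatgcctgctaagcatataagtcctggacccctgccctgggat
Agr2: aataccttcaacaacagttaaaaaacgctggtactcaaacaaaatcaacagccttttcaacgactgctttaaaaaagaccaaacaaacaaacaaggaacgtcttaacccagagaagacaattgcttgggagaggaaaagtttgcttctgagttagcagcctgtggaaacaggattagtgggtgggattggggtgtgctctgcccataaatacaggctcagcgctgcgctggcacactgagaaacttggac
Spdef: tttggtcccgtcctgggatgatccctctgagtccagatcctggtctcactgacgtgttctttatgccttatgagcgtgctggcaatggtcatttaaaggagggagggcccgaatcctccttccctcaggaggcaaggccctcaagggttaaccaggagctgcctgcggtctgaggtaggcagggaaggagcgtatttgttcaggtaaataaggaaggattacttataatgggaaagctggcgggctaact
Fcgbp: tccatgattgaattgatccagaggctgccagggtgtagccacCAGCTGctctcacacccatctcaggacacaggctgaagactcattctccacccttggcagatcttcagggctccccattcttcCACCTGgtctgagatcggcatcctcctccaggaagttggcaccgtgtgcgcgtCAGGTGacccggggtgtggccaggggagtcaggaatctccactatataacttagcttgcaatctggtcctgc
Muc2 had 1 match, CAGCTG, which begins 112 bases before the gene start. Fcgbp had 3 matches, of which CAGCTG begins 208 bases before its start, CACCTG begins 125 bases before it and CAGGTG begins 72 bases before it. Agr2, Spdef and Atoh1 had none in this window. Of all 32851 RefSeq promoters, 44.8% held at least 1 match in the same window, and a match is a description of letters only.

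Relative to Muc2 in the same library, which no scaling between libraries can move, the members did not all keep the same proportion. Tff3 had 159 to 184 CPM per 100 CPM of Muc2 in NEC and 159 to 200 in control, so the ratio of these 2 products spanned nearly the same range in both groups. Agr2 had 12.1 to 21.9 per 100 of Muc2 in NEC and 13.9 to 22.2 in control, likewise overlapping. Clca1 had 6.23, 8.02 and 5.62 per 100 of Muc2 in NEC replicates 1 to 3, against 67.3, 44.2 and 130 in control replicates 1 to 3. The mean of this ratio was 6.62 ± 1.25 in NEC and 80.4 ± 44.2 in control (SD, n = 3 each), with the groups far apart. Fcgbp averaged 196 ± 80.6 per 100 of Muc2 in NEC and 422 ± 207 in control, and its groups overlapped. These pairs were chosen after their values were seen, and no test was made of the ratios.

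**Figure D3:**
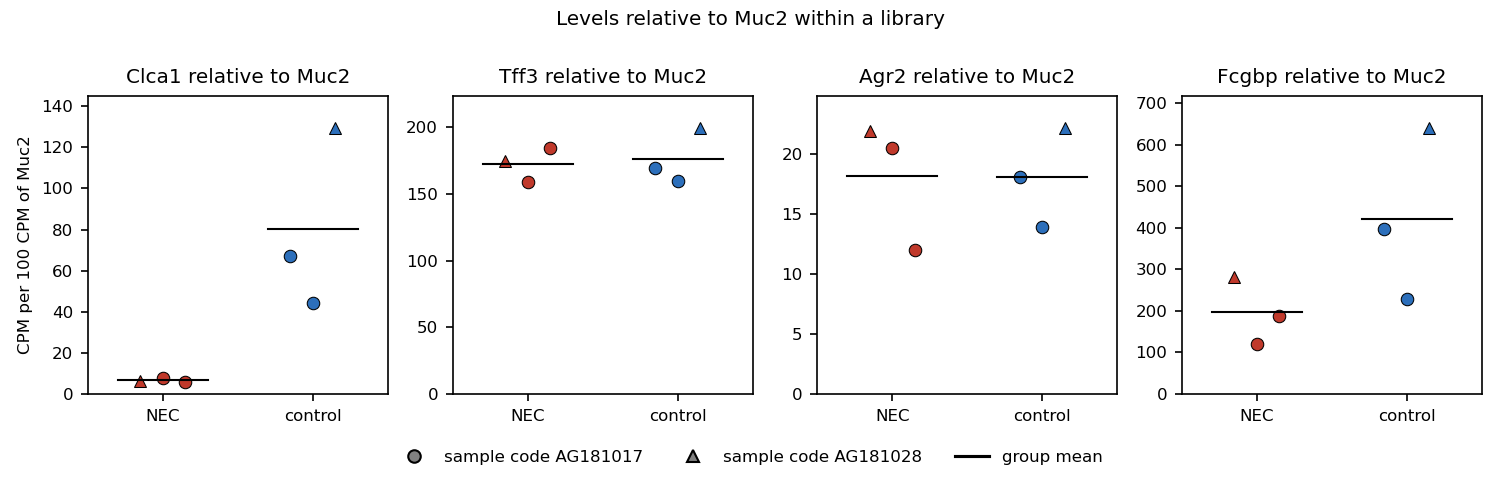
CPM of Clca1, Tff3, Agr2 and Fcgbp per 100 CPM of Muc2 in each NEC and control library, with group means as lines and sample codes as marker shapes. Clca1 sits between 5.62 and 8.02 in NEC and between 44.2 and 130 in control, while Tff3 sits between 159 and 200 in all 6 libraries.

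The sample codes in the labels begin with AG181017 for 2 libraries of each group and with AG181028 for NEC replicate 1 and control replicate 3, and what the codes stand for is not stated. These last 2 were the lowest library of their group for Muc2, Tff3, Agr2 and Spdef. Within AG181028 the NEC library exceeded the control library 2.28-fold for Muc2, 1.99-fold for Tff3, 2.25-fold for Agr2 and 2.54-fold for Spdef. Within AG181017 the corresponding values were 2.07-fold, 2.15-fold, 2.05-fold and 2.42-fold. Both NEC libraries were above both control libraries for each of the 4 genes, and also for Spink4 and Creb3l1. Clca1 had the reverse layout, and Zg16, Fcgbp and Atoh1 overlapped. The share of all genes so separated in the AG181017 libraries was not taken. Clca1 was lower in NEC within both codes, by log2 differences of -3.19 in AG181028 and -1.97 in AG181017. Clca1, Spink4, Atoh1, Zg16 and Creb3l1 differed more between the codes than Muc2, Tff3, Agr2 and Spdef, while Fcgbp did not. The 1 library a group in AG181028 allows no test. Spink4 had 7.32-fold in AG181017 and 1.09-fold in AG181028, Atoh1 had 1.15-fold and 2.08-fold in the same order of codes, and Zg16 had opposite signs, with log2 differences of 2.08 in AG181017 and -1.32 in AG181028. Creb3l1 had 2.12-fold in AG181017 and 1.45-fold in AG181028, and Fcgbp had log2 differences of 0.05 and 0.00035 in the same 2 sets. With the code as a term in the edgeR fit, 1.27% of all genes were called, among them Clca1 (log2 fold change -2.38, edgeR adjusted p = 0.0351) and Muc2 (1.10, edgeR adjusted p = 0.0498), and the other 8 members were not. Within the 4 AG181017 libraries alone 0.129% of all genes were called, among them Spink4 (2.84, edgeR adjusted p = 0.0431).

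The summed level of the 10 genes was 1010, 1815 and 2237 CPM in NEC replicates 1 to 3 and 1508, 1159 and 832 CPM in control replicates 1 to 3, and the groups overlapped. Pan-epithelial genes (Epcam, Cdh1, 3 keratins, 2 claudins and Cdx2) summed to 5408 to 7050 CPM in NEC and 5510 to 6526 CPM in control. Of these 8, edgeR called 0, and the median log2 fold change was -0.04, with 3 positive and 5 negative values. The groups did not overlap for 2, both higher in NEC, against 10.8% of all genes. These were Krt19 (log2 fold change 1.56, SE 0.34), which DESeq2 called, and Krt8 (0.41, SE 0.25). Per 100 CPM of these epithelial genes, the goblet cell genes stood at 14.3, 33.6 and 32.4 CPM in NEC and at 23.6, 17.8 and 15.1 CPM in control. On that footing the groups did not overlap for Clca1, lower in NEC, and Spdef, higher in NEC, and overlapped for the other 8. The share of all genes without overlap was not taken on that footing. By CPM it was 22.4%, both directions together.

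Further goblet cell markers were 18 genes that were not members, and Itln1 among them is also in the list of Paneth cell markers below. Of the 17 measured edgeR called 0, with 8 at an unadjusted p below 0.05, against 15.6% of all genes. DESeq2 called 4, all higher in NEC (Lrrc26, Oit1, Scin and Ccl9), against 7.71% of all genes in either direction, and limma-voom called 0. Of the 17, 16 had positive log2 fold changes, the median was 0.84, and the groups did not overlap in 7, all higher in NEC, against 10.8% of all genes. Lrrc26, a regulatory subunit of the BK potassium channel in secretory epithelium, had 3.19, 2.54 and 3.94 CPM in NEC and 0.886, 0.862 and 1.19 CPM in control (log2 fold change 1.72, SE 0.39, edgeR adjusted p = 0.0974). The 3 NEC values were each above 2 CPM and the 3 control values each below it. Oit1 had a log2 fold change of 1.62 (SE 0.43), Scin, which severs actin filaments, of 1.13 (SE 0.31), and the chemokine gene Ccl9 of 2.02 (SE 0.66). The negative one was Rep15, named after its value was seen, at 2.29 ± 1.70 CPM in NEC and 5.04 ± 0.732 CPM in control (SD, n = 3 each, log2 fold change -1.13, SE 0.53). Retnlb, a goblet cell product of the colonized colon, was listed at 0 in all 6 libraries, which allows at most 0.0282 to 0.0432 CPM a library at 3 counts.

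Among genes that fold and glycosylate mucin, edgeR called 1 higher and 1 lower in NEC. Over all genes, edgeR called 0.704%, limma-voom 0.787% and DESeq2 7.71%. Of 14 folding and endoplasmic reticulum genes measured, Qsox1 was the 1 called by edgeR and by limma-voom, and DESeq2 called Creld2 also. An unadjusted p below 0.05 was found for 3 of the 14, against 15.6% of all genes. Qsox1, an oxidase that makes disulfide bonds in secreted proteins, rose to 88.9, 50.8 and 94.8 CPM in NEC, against 17.5, 20.9 and 22.4 CPM in control (log2 fold change 1.95, SE 0.30, edgeR adjusted p = 0.0419). Leaving out 1 library ended the Qsox1 call in 5 of 6 cases, all except NEC replicate 2, and across all settings its log2 fold change stayed between 1.79 and 2.17. The median of this list was 0.23, and Creld2 (-0.998, SE 0.27), the retrieval receptor gene Kdelr3 (1.06, SE 0.36) and Sdf2l1 (-0.39, SE 0.29) were not called by edgeR. Of 19 mucin O-glycosylation genes edgeR and limma-voom called St6galnac2 alone, and DESeq2 called 4. An unadjusted p below 0.05 was found for 6 of the 19. St6galnac2, which adds sialic acid to the first sugar of mucin chains, fell to 14.9, 20.3 and 17.7 CPM in NEC, against 48.3, 45.1 and 43.8 CPM in control (log2 fold change -1.37, SE 0.22, edgeR adjusted p = 0.0480). Its call ended in each of the 6 fits that left out 1 library and also under upper quartile or library size scaling, with log2 fold changes of -1.50 to -1.27 across settings. A second annotated identifier and an opposite-strand transcript share exon sequence with St6galnac2, so its counts are uncertain. The list had 10 positive and 9 negative values with a median of 0.07, and St3gal4 (-0.89, SE 0.21), Gcnt3, which branches mucin sugars (1.30, SE 0.34), and the fucosyltransferase gene Fut2 (2.22, SE 0.66) were not called by edgeR but were by DESeq2.

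Among secretory lineage factors and Notch genes, 0 of 16 were called by edgeR, with a median of -0.28. At an unadjusted p below 0.05 stood 3 of the 16, against 15.6% of all genes. DESeq2 called 2 of the 16, Klf4, higher in NEC, and Olfm4, lower in NEC, against 7.71% of all genes in either direction. By limma-voom 0 were called. Klf4, a factor of goblet cell differentiation in mouse colon, had 438, 174 and 337 CPM in NEC and 118, 116 and 134 CPM in control (log2 fold change 1.37, SE 0.35, edgeR adjusted p = 0.124). The crypt gene Olfm4 had a log2 fold change of -1.77 (SE 0.62), the Notch ligand gene Dll1 of -0.81 (SE 0.34) and Elf3 of -0.47 (SE 0.23). For mucus release and hydration edgeR called 0 of 13, with a median of -0.10. Slc4a4 was the 1 at an unadjusted p below 0.05, against 15.6% of all genes. DESeq2 called Slc4a4 alone of the 13, against 7.71% of all genes, and limma-voom called 0. The bicarbonate cotransporter gene Slc4a4 had a log2 fold change of 1.55 (SE 0.35), Nlrp6, tied to goblet cell secretion in mice, of -1.12 (SE 0.49), the MUC2-cleaving protease gene Mep1b of -0.67 (SE 0.32) and the anion exchanger gene Slc26a6 of -0.72 (SE 0.39). Opposite-strand genes share exon sequence with Qsox1, Kdelr3, Dll1, Elf3, St3gal4, Muc13, Stat6, Mmp7, Mettl7b, Csf1r and Apoa4, and same-strand genes with Olfm4, Il10rb and the colon marker Ang, so their counts may include those of a neighbour, whereas no annotated exon of another gene lies over an exon of the 10 members.

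Other mucins were examined as a contrast to Muc2. Of 6 transmembrane mucins measured edgeR and limma-voom called 0, with a median of 1.21. DESeq2 called 2, Muc3 and Muc3a, against 7.71% of all genes. At an unadjusted p below 0.05 stood 3 of the 6, against 15.6% of all genes. Muc3 had 649, 728 and 1346 CPM in NEC and 295, 403 and 99.3 CPM in control (log2 fold change 1.77, SE 0.53, edgeR adjusted p = 0.179), though it may share counts with Muc3a, whose log2 fold change was 0.98 (SE 0.24). Muc1 had 1.44 (SE 0.53), and Muc13, an abundant mucin of enterocytes, had -0.45 (SE 0.25). Of 7 stomach-type mucins and trefoil factors 5 stayed below the count filter, including Muc5ac and Tff1, and Tff2 and Muc6 averaged under 1 CPM in both groups, with 0 calls by any of the 3 tools. Of 12 genes of cytokine signals to goblet cells, 5 stayed below the filter, among them Il13, at 0 in every library. Of the 7 measured, 2 had an unadjusted p below 0.05 and 0 were called by edgeR, DESeq2 or limma-voom. The receptor chain gene Il13ra1 had a log2 fold change of -0.85 (SE 0.31), Il33 of 1.44 (SE 0.53), Il10rb of -0.90 (SE 0.47) and Stat6 of -0.27 (SE 0.27).

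**Figure D4:**
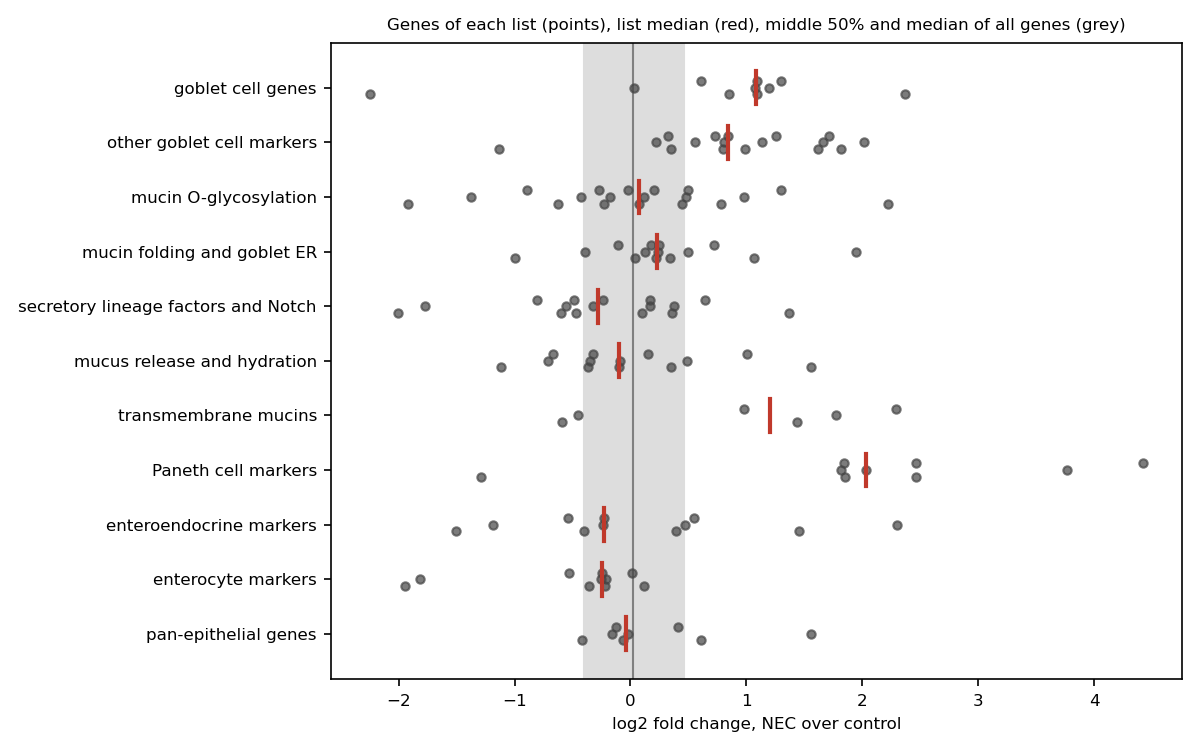
Log2 fold changes, NEC over control, of the measured genes of 11 lists as points, with the list median in red and the median and middle 50% of all genes tested in grey. The goblet cell genes have a median of 1.08 and the other goblet cell markers 0.84. Paneth cell markers, at 2.03, and transmembrane mucins, at 1.21, have higher medians. Mucin O-glycosylation genes have 0.07 and enterocyte markers -0.25.

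Markers of other cells are given beside the goblet cell genes, and their part in the results was not tested. Of 10 Paneth cell markers 9 were measured and Mmp7 rose (log2 fold change 4.42, SE 0.67, edgeR adjusted p = 0.0419), a call that ended in each of the 6 fits without 1 library. Without NEC replicate 3 the Mmp7 log2 fold change was 3.55 (edgeR adjusted p = 0.119). Of the 9 markers, 5 had an unadjusted p below 0.05, against 15.6% of all genes, the share to set beside each list below. Positive log2 fold changes were found for 8 of the 9, and the list median was 2.03, above the 1.08 of the goblet cell genes. The list summed to 68.7, 342 and 610 CPM in NEC replicates 1 to 3 and to 136, 64.6 and 54.4 CPM in control replicates 1 to 3, so NEC replicates 2 and 3 were high, as for Spink4. Defensin genes such as Defa24 and Defa17 are near-identical copies whose counts are uncertain. Enterocyte markers summed to 58872 to 146368 CPM in NEC and 71476 to 144814 CPM in control, with 0 of 10 called by edgeR and 2 at an unadjusted p below 0.05. Apoa4 and Apoa1 made up most of that sum, and 8 of the 10 had negative log2 fold changes, among them the lactase gene Lct (-1.94, SE 0.39, edgeR adjusted p = 0.0761), whose groups did not overlap, and the fatty acid binding protein gene Fabp1 (-1.82, SE 0.71, edgeR adjusted p = 0.278). Enteroendocrine markers summed to 213 to 373 CPM in NEC and 240 to 603 CPM in control, with 0 of 11 called and 3 at an unadjusted p below 0.05. Tuft cell markers summed to 1.67 to 11.2 CPM in NEC and 2.46 to 7.14 CPM in control, with 0 of 4 at an unadjusted p below 0.05. Leukocyte markers summed to 125 to 212 CPM in NEC and 259 to 347 CPM in control, with 0 of 5 called and 2 at an unadjusted p below 0.05. Most of that sum was the macrophage gene Csf1r, at 130 ± 22.4 CPM in NEC and 278 ± 37.7 CPM in control (SD, n = 3 each), whereas the neutrophil gene S100a8 was higher, at 1.42, 11.7 and 2.99 CPM in NEC and 0, 0.244 and 0.181 CPM in control, and the list median was 0.42. Smooth muscle markers summed to 765 to 1961 CPM in NEC and 663 to 1527 CPM in control, with 0 of 5 at an unadjusted p below 0.05. DESeq2 called 3 Paneth cell markers, all higher in NEC, 1 enterocyte marker (Lct, lower in NEC) and 1 enteroendocrine marker (Gcg, higher in NEC). It also called 2 leukocyte markers (S100a8 higher and Csf1r lower in NEC) and 1 pan-epithelial gene (Krt19, higher in NEC). DESeq2 called 7.71% of all genes. In these lists limma-voom called 0.

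Markers of gut regions were examined because no segment is labelled. Of 8 colon markers, Hoxb13 was at 0 in every library and Car1 at 0 in 5 of 6. The 6 measured summed to 150 to 161 CPM in NEC and 339 to 598 CPM in control, with 0 called by edgeR or limma-voom. At an unadjusted p below 0.05 stood 3 of the 6, against 15.6% of all genes. DESeq2 called 3, all lower in NEC (Aqp8, Mettl7b and Ang, which shares exon sequence with Rnase4), against 7.71% of all genes. The colon sum and Clca1 were both lower in all 3 NEC libraries, and whether the part of the colon markers bears on Clca1 was not tested. Duodenal and ileal markers summed to 39.8 to 89.9 CPM in NEC and 63.7 to 183 CPM in control, with 0 of 4 called by the 3 tools and 1 at an unadjusted p below 0.05. Of 6 pancreatic acinar markers 3 were measured, and Cela1 fell to 2.77, 4.91 and 3.81 CPM in NEC, against 35.6, 20.7 and 39.6 CPM in control (log2 fold change -3.06, SE 0.37, edgeR adjusted p = 0.0297). The Cela1 call ended without NEC replicate 1, NEC replicate 3, control replicate 1 or control replicate 3. Those 3 summed to 10.2 to 80.2 CPM in NEC and 40.5 to 182 CPM in control.

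Across the 6 libraries, the mean standardised level of the 10 goblet cell genes was -0.09, 0.40 and 0.89 in NEC replicates 1 to 3 and 0.01, -0.60 and -0.62 in control replicates 1 to 3. The genes of most similar pattern among 10072 others with at least 5 CPM were Tspan4, Asb8, Emd, Ly6a and Kcnj8, with Pearson r between 0.967 and 0.977 over 6 libraries, given as a description. Tspan4 had 7.40, 12.7 and 17.2 CPM in NEC and 6.99, 5.62 and 4.74 CPM in control.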

How the data were processed

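RNA sequencing of mouse intestine was deposited by the authors as 1 table of whole-number counts per gene for the 6 samples. Per the labels' protocols, TRIzol-extracted total RNA was sequenced on an Illumina NovaSeq as read pairs, and per the submitters' processing notes the genome build was mm10. The aligner, counter, annotation and strandedness of counting were not given in the sources used here. In the low range, counts divisible by 4 occurred 1.91 times as often as those beside them, so a count may not be 1 fragment, and floors at 3 counts, which cover counting error only, may be too low.

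Of 54446 identifiers, 54409 matched a symbol in GENCODE M21. Genes were kept by filterByExpr (minimum count 10), scaled by TMM and tested with edgeR 4.0.16 in R 4.3.3 (glmQLFit, robust=TRUE). SE is the log2 fold change over the square root of F, from which the 95% intervals follow. The alternatives were 3 other scalings, no filter, at least 50 counts in at least 3 libraries, DESeq2 1.42.0, limma-voom (limma 3.58.1), robust=FALSE, a block for replicate number, the code prefix as a term, the AG181017 libraries alone, the 10 most abundant genes left out, and each library left out. The procedure was tested on simulated counts, where most changes of log2 1 or 2 were missed. The lack of a call thus does not show the lack of a change.

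The goblet cell genes and all gene lists were chosen with earlier results of these data known. Genes named beside the 10 members are, per list, up to 4 with the smallest raw p and any called, and the 5 most similar in pattern. For other cell types the rule allowed up to 3 by mean CPM, and their lists are given as sums. Genes named outside this rule (Retnlb, Rep15, Itln1, Fabp1, Pyy, Gip, Krt8, genes at 0 and those called by DESeq2) were chosen after their values were seen. Where a symbol had 2 identifiers, as 1 listed gene did, the more abundant was used.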

Additional observations from a re-analysis of the deposited data

How the results depend on the processing

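With 3 samples a group, none of the 10 goblet cell genes was called by the quasi-likelihood test, and that count was 1 with no low-count filter (Clca1), 1 within the 4 AG181017 libraries (Spink4), 2 with the sample code as a term (Clca1 and Muc2) and 3 with DESeq2 (Clca1, Spink4 and Spdef). It was 0 to 1 when 1 library was left out. Their median log2 fold change of 1.08 ran from 0.80 to 1.36 in those fits. The count over all genes, 135, was 247 with no filter, 243 with the code as a term, 25 within AG181017, 1446 with DESeq2, and 0 to 106 with 1 library left out (control replicate 1 gave 0, control replicate 3 gave 25, NEC replicate 3 gave 3 and NEC replicate 1 gave 34). With the replicate number as a block it was 54, and 0 goblet cell genes were called. Same-numbered samples had correlations of deviations of -0.14, 0.27 and -0.01. NEC replicate 1 and control replicate 3, which share a code, had 0.36. With 3 samples a group these values cannot show whether the numbers pair the samples. With 1 library left out, Fcgbp ran from -0.25 to 0.31 and Zg16 from -0.74 to 2.28, and the cause was not tested. The other 8 kept their sign in all 18 alternatives. By length of the longest transcript, Muc2 ranked 3 and Fcgbp 4 in NEC (4 and 3 by exon length). In control Muc2 ranked 3, Spink4 4, Agr2 5 and Clca1 6 (5, 3, 6 and 4 by exon length). Other ranks within a group did not move.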
